A study of Mus musculus with 6 samples.

Results

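The forkhead (Fox) transcription factors share a winged-helix DNA-binding domain and are sorted into lettered subclasses. Members were the gene symbols of the array annotation made of Fox, a subclass letter from a to s and a number, with a probe set of that gene alone. Where a gene had several such probe sets, that with the highest mean was used. This gave 43 members among 19937 genes with a value, and 2 of the 43 (Foxf1 and Foxn3) had more than 1 probe set.

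Mouse embryonic stem cells were profiled on 6 Affymetrix arrays, 3 after 24 hours of CHIR99021 and 3 after 24 hours of XAV939. CHIR99021 inhibits the kinase GSK3, which stabilises β-catenin, and was used at 3 µM. XAV939 inhibits tankyrase, which stabilises Axin and lowers β-catenin. Its dose reads 3 µM in the sample labels and 1 µM in the treatment protocol. All cells were of the V6.5 line with a biotin and 3xFLAG tag knocked in at Ctnnb1, the β-catenin gene, together with the biotin ligase BirA (Ctnnb1-BioFLneo;BirA ESC). Every culture was kept in serum with LIF, a cytokine that holds the cells undifferentiated, on feeder cells from DR4 mice. The comparison asked how transcription differed between a stimulated and a blocked Wnt pathway. No untreated arrays were analysed here, so no difference is assigned to either compound. The labels do not say that replicates were separate cultures, so p-values measure only the spread between these arrays. In bulk RNA, fewer cells of a type and less RNA per cell cannot be told apart.

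Forkhead factors act in many settings. FoxA proteins are pioneer factors of endoderm that open closed chromatin, and FoxO proteins are kept out of the nucleus when AKT phosphorylates them. FoxH1 is the DNA-binding partner of SMAD proteins downstream of Nodal, and FoxD3 is needed for self-renewal of mouse embryonic stem cells and for neural crest. Several members touch the Wnt pathway directly: FoxO and FoxM1 proteins bind β-catenin, and FoxK proteins carry Dishevelled into the nucleus.

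Values are RMA-processed log2 expression values, and differences are CHIR99021 minus XAV939. Errors of differences are standard errors of limma's moderated fit over all genes, with Benjamini-Hochberg adjustment over those 19937 genes and a threshold of 0.05. Values of different probe sets depend on their probes, so their order is not an order of RNA amounts. Of 7 measured Wnt target genes, 6 rose with CHIR99021, among them Axin2 (1.91 ± 0.086, SE), Cdx2 (1.63 ± 0.10), Sp5 (1.35 ± 0.14) and Lef1 (0.69 ± 0.059). The embryonic stem cell marker list had mean values of 10.48 to 10.55 on the CHIR99021 arrays and of 10.56 to 10.58 on the XAV939 arrays, and all 10 of its genes lay above the median of all genes. Within that list 3 genes rose, Esrrb (0.60 ± 0.064), Nanog (0.49 ± 0.054) and Zfp42 (0.25 ± 0.059), and 4 fell, Utf1 (-0.67 ± 0.086), Tdgf1 (-0.63 ± 0.069), Fgf4 (-0.38 ± 0.059) and Lin28a (-0.21 ± 0.049). Zfp42 did not pass without CHIR99021 replicate 1 or 3 or XAV939 replicate 2 (adjusted p up to 0.0782, limma). With single arrays left out, Lin28a passed only without XAV939 replicate 1 (otherwise adjusted p up to 0.0842, limma). Of 9 measured primitive endoderm markers 1 rose, Lama1 (0.26 ± 0.052), and 1 fell, Dab2 (-0.35 ± 0.085). The Dab2 call was lost when replicate 1 or 2 of either treatment was left out (adjusted p up to 0.126, limma). In limma 0 of 5 ciliated cell markers passed, with 1 at an unadjusted p under 0.05. Of all genes, 9.65% were called in either direction. XAV939 replicate 1 correlated least with the other arrays of its group (r = 0.997 across genes, against 0.999 between replicates 2 and 3).

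Of the 43 forkhead genes, 4 fell with CHIR99021 and 0 rose in limma's test. The genes that fell were Foxp1, Foxi3, Foxo1 and Foxk1, from 4 different subclasses. They made up 9.30% of the members, where 9.65% of all genes were called in either direction, so the share of called members was near the background. By direction, 4.34% of all genes were called lower and 5.31% higher. At an unadjusted p under 0.05, 11 members (25.6%) were lower and 1 (2.33%) higher, beside 9.4% and 11.2% of all genes. The median difference of the members was -0.0018, beside 0.0066 over all genes, and their median absolute difference was 0.077, beside 0.062. Signs were evenly spread, with 21 positive and 22 negative differences.

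**Figure D1:**
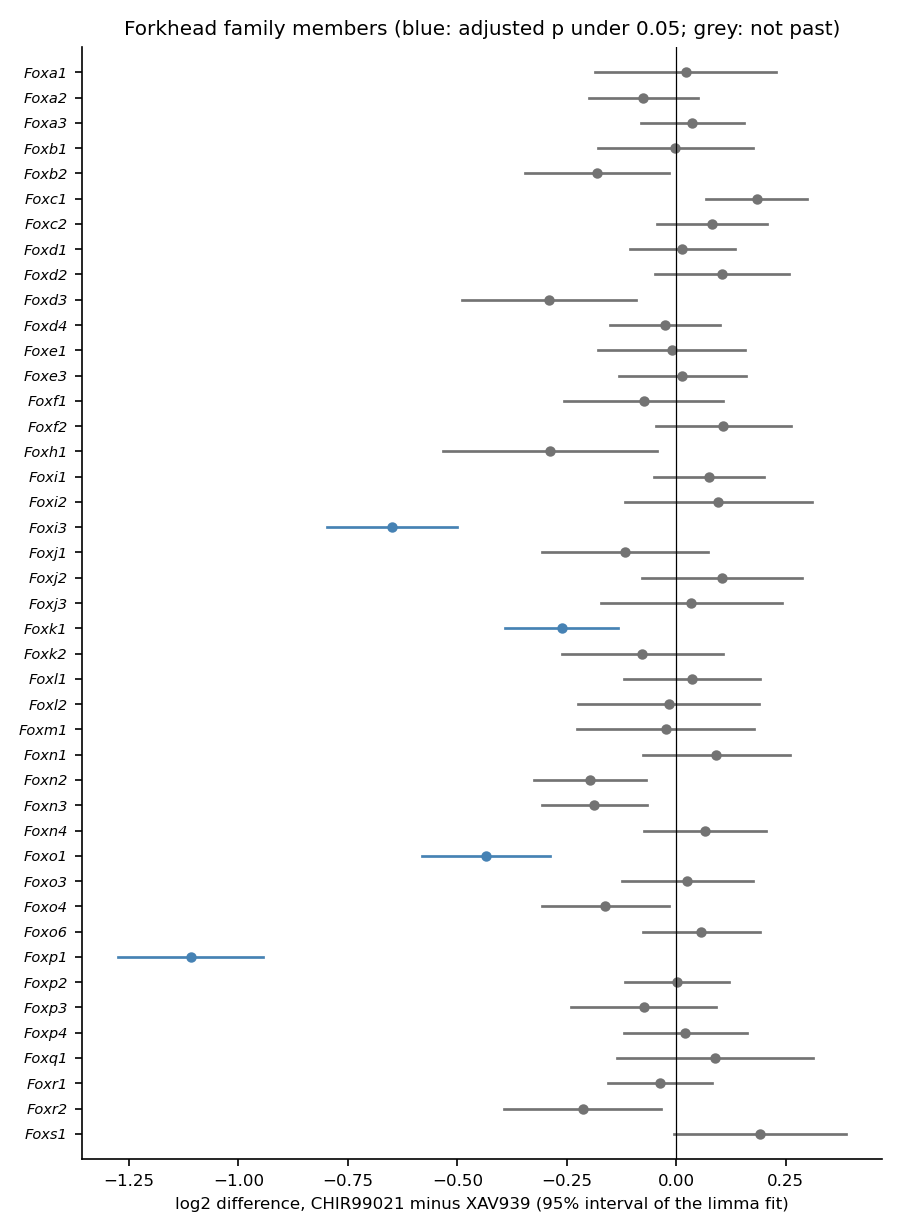
Log2 difference (CHIR99021 minus XAV939) of each of the 43 forkhead genes, with points for the estimate and lines for the 95% interval of the limma fit. Foxp1, Foxi3, Foxo1 and Foxk1, in blue, passed an adjusted p of 0.05 and lie left of 0, and the other 39 genes, in grey, did not pass.

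Foxp1 had the largest difference in the family. It encodes a FoxP repressor that forms dimers through a leucine zipper and acts in B cells, heart and neurons, and embryonic stem cells make an isoform of it with altered DNA binding. Foxp1 (probe set 10546661) read 6.02, 6.13 and 6.27 on the CHIR99021 arrays, against 7.36, 7.17 and 7.22 on the XAV939 arrays. Every XAV939 array lay above every CHIR99021 array, and the groups did not overlap. The means were 6.14 ± 0.12 with CHIR99021 and 7.25 ± 0.099 with XAV939 (SD, n = 3 each). The difference was -1.11 ± 0.074, or 2.16-fold lower with CHIR99021, with an adjusted p of 8.46e-06 in limma's test.

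The other FoxP genes did not pass. Foxp4, a regulator of lung epithelium, had means of 6.84 ± 0.087 with CHIR99021 and 6.82 ± 0.073 with XAV939 (SD, n = 3 each), and the 95% interval of its difference was -0.12 to 0.16. Foxp2, known for vocal learning and motor circuits, differed by 0.0018 with an interval of -0.12 to 0.12. Foxp3, the factor of regulatory T cells, differed by -0.075 with an interval of -0.24 to 0.091. Foxp2 and Foxp3 had means over all arrays of 5.10 and 5.29, below the median of all genes (6.07). Within each array, the log2 ratio of Foxp1 to Foxp4 was -0.79 to -0.64 with CHIR99021 and 0.40 to 0.46 with XAV939. The Foxp1 ratios to Foxp2 and to Foxp3 were also lower on every CHIR99021 array than on any XAV939 array.

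RefSeq annotates 3 separate transcription starts of Foxp1 on the minus strand of chromosome 6, and the promoter bases before each are shown because Foxp1 is the member that differed most. The windows are the 250 bases before each start (GRCm38.p6), from the most upstream start to the most downstream. They lie at chr6:99520994-99521243, chr6:99266516-99266765 and chr6:99028299-99028548. Capitals mark matches to the letters CTTTGAA or to CTTTGAT or to CTTTGTA or to CTTTGTT on either strand, a core bound by TCF/LEF factors, which are the DNA-binding partners of β-catenin.
Foxp1, most upstream start: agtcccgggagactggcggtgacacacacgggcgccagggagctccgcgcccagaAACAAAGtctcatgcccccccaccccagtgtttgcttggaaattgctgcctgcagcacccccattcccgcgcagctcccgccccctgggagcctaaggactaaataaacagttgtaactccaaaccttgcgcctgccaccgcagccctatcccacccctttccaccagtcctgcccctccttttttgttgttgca
Foxp1, middle start: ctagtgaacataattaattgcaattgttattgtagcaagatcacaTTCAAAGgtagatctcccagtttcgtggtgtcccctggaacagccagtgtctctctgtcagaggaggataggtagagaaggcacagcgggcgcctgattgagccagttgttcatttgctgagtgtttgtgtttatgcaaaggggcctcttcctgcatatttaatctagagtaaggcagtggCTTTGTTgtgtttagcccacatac
Foxp1, most downstream start: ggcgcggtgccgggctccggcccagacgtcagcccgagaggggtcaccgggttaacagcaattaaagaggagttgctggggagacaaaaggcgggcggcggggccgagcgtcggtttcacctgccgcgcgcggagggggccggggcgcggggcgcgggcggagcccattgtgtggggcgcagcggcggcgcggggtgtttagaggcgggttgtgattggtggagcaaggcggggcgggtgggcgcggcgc
The first window holds 1 match, the middle window 2 and the last 0. No matches overlapped each other. The array gives 1 value for the gene, which was not assigned to a start. The windows are 60.8%, 45.2% and 74.0% G and C.

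Foxi3 was the next in size. It is a factor of cranial placodes, of the branchial arches and of hair and tooth buds. Foxi3 (probe set 10538959) read 6.59, 6.80 and 6.62 with CHIR99021, against 7.36, 7.25 and 7.35 with XAV939. The highest CHIR99021 array was well below the lowest XAV939 array. The difference was -0.65 ± 0.067, or 1.57-fold lower with CHIR99021, with an adjusted p of 1.34e-04 in limma's test. Its relatives Foxi1, of the inner ear and kidney, and Foxi2 did not pass, with differences of 0.075 ± 0.057 and 0.096 ± 0.096. The mean of Foxi1 over all arrays, 4.87, was below the median of all genes (6.07), and that of Foxi2, 6.36, above it. The within-array ratios of Foxi3 to Foxi1 and of Foxi3 to Foxi2 were lower on all CHIR99021 arrays.

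Foxo1 was the third. FoxO1 controls metabolism, stress resistance and apoptosis downstream of insulin and AKT, and it supports pluripotency genes in human and mouse embryonic stem cells. Foxo1 (probe set 10491962) read 7.46, 7.48 and 7.63 with CHIR99021, against 8.06, 7.90 and 7.92 with XAV939. The groups did not overlap, and replicate 3 was the highest CHIR99021 array. The difference was -0.43 ± 0.066, or 1.35-fold lower with CHIR99021, with an adjusted p of 0.00172 in limma's test.

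The other FoxO genes did not pass. Foxo3, a longevity-associated paralogue with overlapping targets, read 8.09, 7.93 and 8.10 with CHIR99021, against 8.10, 8.00 and 7.93 with XAV939. These values overlapped throughout, and the 95% interval of the difference was -0.12 to 0.17. Foxo4 read 8.03, 8.00 and 8.19 with CHIR99021, against 8.17, 8.23 and 8.31 with XAV939, a difference of -0.16 ± 0.065 (adjusted p = 0.183, limma). Only CHIR99021 replicate 3 reached into the range of the XAV939 arrays. Foxo6, expressed mainly in brain, differed by 0.058 ± 0.060, and its mean over all arrays, 5.57, was below the median of all genes (6.07). The log2 ratio of Foxo1 to Foxo3 was -0.62 to -0.44 with CHIR99021 and -0.11 to -0.0084 with XAV939.

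The promoter windows of Foxi3 and Foxo1 are given for comparison with those of Foxp1, as the other members that fell and for which a window was at hand. They are the 250 bases before the RefSeq start on the plus strand (GRCm38.p6), at chr6:70956356-70956605 and chr3:52268087-52268336. Neither holds a match to the TCF/LEF letters, so no base is in capitals.
Foxi3: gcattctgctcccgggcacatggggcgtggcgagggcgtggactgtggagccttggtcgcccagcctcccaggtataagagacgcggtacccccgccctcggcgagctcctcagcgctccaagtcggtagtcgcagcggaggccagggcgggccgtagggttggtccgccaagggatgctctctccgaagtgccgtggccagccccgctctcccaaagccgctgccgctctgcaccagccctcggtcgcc
Foxo1: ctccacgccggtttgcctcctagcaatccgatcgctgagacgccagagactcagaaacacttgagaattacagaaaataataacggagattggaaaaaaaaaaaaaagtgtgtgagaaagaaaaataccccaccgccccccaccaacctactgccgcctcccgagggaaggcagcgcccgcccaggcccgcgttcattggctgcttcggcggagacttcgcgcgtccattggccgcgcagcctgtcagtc
Promoter windows of 300 bases, 250 before and 50 after the start, were at hand for 28 members. Of their 33 windows, 6 (18.2%) held at least 1 of the 4 letter sets on either strand, beside 16.9% of all 32851 windows. They belonged to Foxp1, Foxa1, Foxa2, Foxb2 and Foxp3. The forkhead core TGTTTAC on either strand was in 1 of the 33 windows, that of Foxa1, beside 3.65% of all windows. A match describes the letters and is not a binding site.

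**Figure D2:**
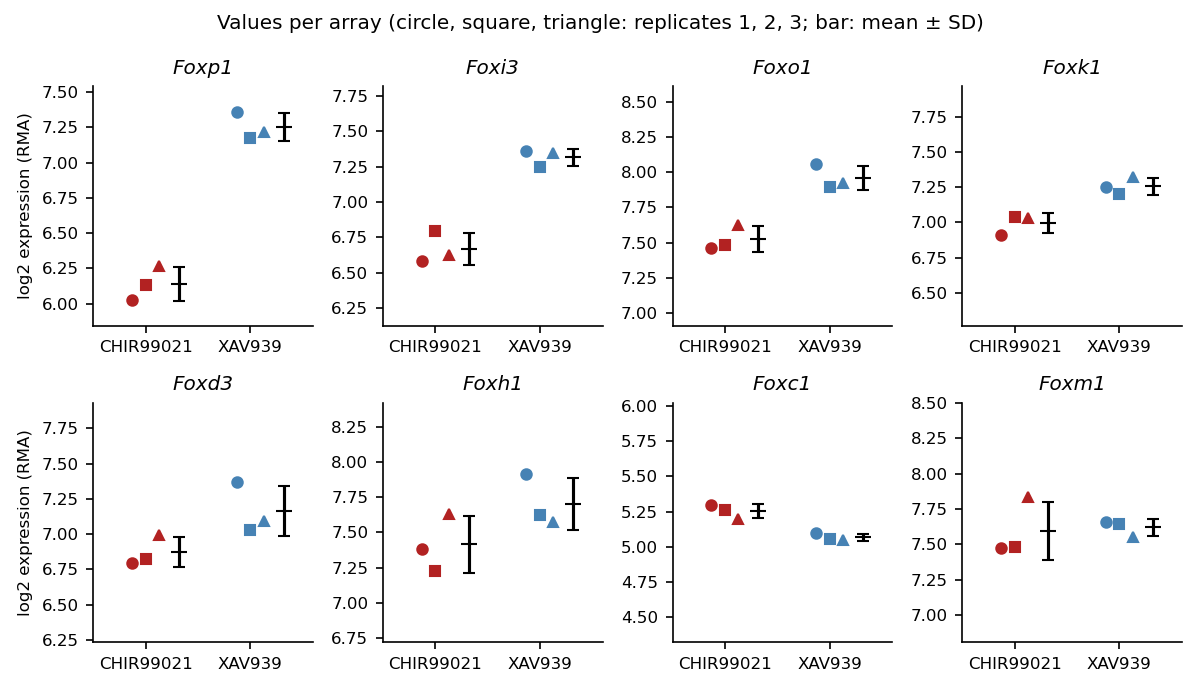
Log2 expression of 8 forkhead genes on each array, with CHIR99021 in red and XAV939 in blue, symbols for replicates 1 to 3, and black bars for the mean ± SD of 3 arrays. Every panel spans the same number of log2 units. The groups are apart for Foxp1, Foxi3, Foxo1 and Foxk1, narrowly apart for Foxd3 and Foxc1, and overlap for Foxh1 and Foxm1.

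Foxk1 had the smallest difference of those that fell. FoxK1 represses autophagy genes, promotes glycolysis and is a partner of the BAP1 deubiquitinase. Foxk1 (probe set 10527101) read 6.91, 7.04 and 7.03 with CHIR99021, against 7.25, 7.20 and 7.32 with XAV939. Every CHIR99021 array lay below every XAV939 array, by a smaller margin than for the genes above. The difference was -0.26 ± 0.059, or 1.20-fold lower with CHIR99021, with an adjusted p of 0.0175 in limma's test. The call was lost without CHIR99021 replicate 1 (adjusted p = 0.0805) and without XAV939 replicate 3 (adjusted p = 0.0751). Its paralogue Foxk2 had means of 8.27 ± 0.14 with CHIR99021 and 8.35 ± 0.12 with XAV939 (SD, n = 3 each), a difference of -0.077 ± 0.083. The within-array ratio of Foxk1 to Foxk2 overlapped between treatments, at -1.40 to -1.15 with CHIR99021 and -1.24 to -0.95 with XAV939.

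The paralogue ratios describe the arrays and were not tested, since each has a gene on top that was chosen because it fell.

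Foxd3 and Foxh1, the genes of the self-renewal factor and of the Nodal partner, had lower means with CHIR99021 but did not pass. Foxd3 read 6.80, 6.83 and 7.00 with CHIR99021, against 7.37, 7.03 and 7.09 with XAV939. The groups did not overlap, by a narrow margin, and XAV939 replicate 1 stood above the rest. The difference was -0.29 ± 0.090 (adjusted p = 0.0767, limma), with an interval of -0.49 to -0.091. Without XAV939 replicate 1 it was -0.19, and without XAV939 replicate 2 it was -0.36 with an adjusted p of 0.0485.

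Foxh1 read 7.38, 7.23 and 7.63 with CHIR99021, against 7.91, 7.62 and 7.58 with XAV939. CHIR99021 replicate 3 lay among the XAV939 arrays. The difference was -0.29 ± 0.11 (adjusted p = 0.158, limma), the member with the largest standard error. It was -0.18 without XAV939 replicate 1 and -0.40 without CHIR99021 replicate 3. With single arrays left out its adjusted p was between 0.0556 and 0.466.

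Of 15 measured genes of the Nodal pathway, in which FoxH1 acts, 4 rose, 4 fell and 7 did not pass. That is 53.3% called, beside 9.65% of all genes and 15.9% of those above the median. The median difference of the list was 0.017. The 4 that fell were Lefty1 and Nodal, the feedback inhibitor and the ligand, with the co-receptor gene Tdgf1 and the ligand Gdf3 (-0.30 ± 0.054). The 4 that rose were the streak genes Mixl1 and Eomes, the inhibitor gene Lefty2 (0.41 ± 0.069) and the receptor gene Acvr1b (0.32 ± 0.059). Lefty1 and Lefty2 thus moved in opposite directions, the first averaging 7.40 ± 0.072 in CHIR99021 cells and 8.90 ± 0.052 in XAV939 cells, the other 8.35 ± 0.072 in CHIR99021 cells and 7.95 ± 0.12 in XAV939 cells (SD, n = 3 each). Both are known Smad and FoxH1 targets. The SMAD genes Smad2, Smad3 and Smad4 did not pass.

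Among FoxO target genes, 3 of 21 fell, 0 rose and 18 did not pass (14.3% called, with a list median of -0.073). Of all genes 9.65% were called, and of those above the median 15.9%, so this share was near the background. In the list 6 genes lay at or below the median. Bcl2l11, which encodes the pro-apoptotic protein BIM, had means of 7.73 ± 0.011 with CHIR99021 and 8.93 ± 0.062 with XAV939 (SD, n = 3 each). Its difference was -1.20 ± 0.053 (adjusted p = 5.19e-07, limma). Txnip, an inhibitor of thioredoxin and glucose uptake, differed by -0.43 ± 0.053, and Gadd45a, a growth arrest and DNA damage gene, by -0.29 ± 0.058. Cdkn1b, Sesn1, Sesn3, Cat and Sod2 were among those that did not pass. At an unadjusted p under 0.05 there were 7 genes of the list (33.3%), beside 20.6% of all genes.

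Of 16 measured FoxO regulators, 2 rose, 1 fell and 13 did not pass. That is 18.8% called, beside 9.65% of all genes and 15.9% of those above the median. At an unadjusted p under 0.05 there were 7 genes of the list (43.8%), beside 20.6% of all genes. Pik3cb, a catalytic subunit of PI3 kinase, rose by 0.43 ± 0.058 (adjusted p = 7.76e-04, limma). The kinase gene Akt2 rose by 0.28 ± 0.073 (adjusted p = 0.0371), which did not hold when replicate 2 or 3 of either treatment was left out (adjusted p up to 0.139). The acetyltransferase gene Ep300 was lower by the fit (-0.26 ± 0.059, adjusted p = 0.0179), which did not hold when CHIR99021 replicate 1, CHIR99021 replicate 2, XAV939 replicate 2 or XAV939 replicate 3 was left out (up to 0.0945). Akt1 and Sgk1 did not pass.

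**Figure D3:**
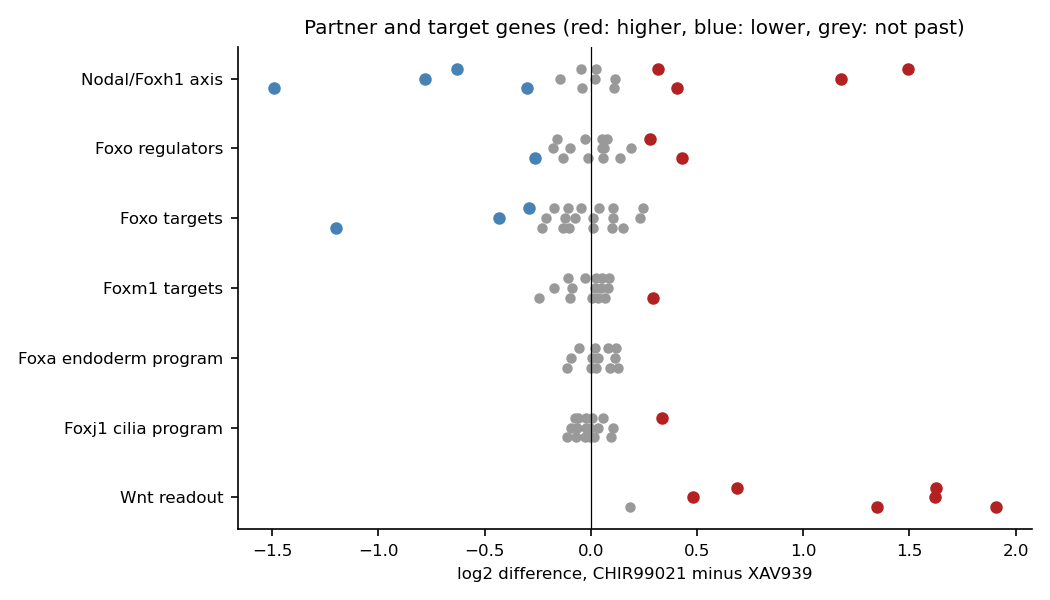
Log2 difference (CHIR99021 minus XAV939) of each measured gene in 7 lists of forkhead partners and targets, with a row per list and a point per gene; vertical offsets within a row only separate points. Nodal genes lie on both sides of 0, FoxO target calls lie to the left, and the endoderm list has no called gene.

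Foxm1, a driver of mitotic gene expression in cycling cells, had means of 7.60 ± 0.20 with CHIR99021 and 7.62 ± 0.057 with XAV939 (SD, n = 3 each). CHIR99021 replicate 3, at 7.83, was the highest of all arrays, and the other CHIR99021 arrays, at 7.48, were the lowest. The 95% interval of the difference was -0.23 to 0.18. Of 16 measured FoxM1 targets, 1 rose and 15 did not pass (6.25% called, beside 9.65% of all genes and 15.9% of those above the median). The one that rose was Cdc25c, a mitotic entry phosphatase (0.29 ± 0.059).

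Widely expressed FoxN and FoxJ members showed small differences. Foxn2 read 8.09, 8.20 and 8.18 with CHIR99021, against 8.32, 8.31 and 8.43 with XAV939. Its groups did not overlap, and its difference of -0.20 ± 0.058 had an adjusted p of 0.0616 (limma). Foxn2 passed when quantile normalisation was repeated (0.0323) and when genes below the 50th percentile were left out (0.0483). Foxn3, a transcriptional repressor linked to cell cycle checkpoints, read 7.81, 7.74 and 7.76 with CHIR99021, against 7.89, 7.99 and 8.00 with XAV939. The groups were again apart, and the difference was -0.19 ± 0.054 (adjusted p = 0.0575, limma). In the fit over all probe sets the other Foxn3 probe set gave a difference of the same sign, -0.25 ± 0.079, and Foxn3 passed when its probe sets were averaged (adjusted p = 0.0304), without XAV939 replicate 1 (0.0262), and in both settings in which Foxn2 passed (0.0497 and 0.0462). Foxj2 and Foxj3 differed by 0.10 ± 0.082 and 0.035 ± 0.093.

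None of the FoxA genes passed. Foxa1, Foxa2 and Foxa3 differed by 0.021 ± 0.093, -0.075 ± 0.056 and 0.037 ± 0.053, and all 3 lay below the median of all genes. Of 13 measured genes of the endoderm program that FoxA factors share, 0 passed in limma, and 0 had an unadjusted p under 0.05. Over all genes these shares were 9.65% and 20.6%. Among them Sox17, Gata4 and Gata6 are early endoderm regulators and Afp and Ttr are secreted products. Of these 13 genes, 12 lay below the median of all genes.

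Members of mesenchyme and mesoderm were Foxc1, Foxc2, Foxd1, Foxd2, Foxf1, Foxf2, Foxl1 and Foxs1. Foxc and Foxf genes act in somites, vessels, heart and gut mesenchyme, Foxd1 and Foxd2 in kidney stroma and somites, Foxl1 in the gut and Foxs1 around vessels. None of the 8 passed, their differences ran from -0.075 to 0.19, and 7 lay below the median of all genes. Foxd1 (0.014), Foxl1 (0.036) and Foxf1 (-0.075) turned sign when a single array was left out. Foxc1 read 5.30, 5.26 and 5.20 with CHIR99021, against 5.10, 5.06 and 5.05 with XAV939, without overlap. Its difference was 0.18 ± 0.052 (adjusted p = 0.0537, limma), the smallest p among the members with a positive difference. It passed without XAV939 replicate 1 (adjusted p = 0.0459) and when quantile normalisation was repeated (0.0444).

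Foxs1 read 5.33, 5.23 and 4.96 with CHIR99021, against 5.01, 4.89 and 5.05 with XAV939. CHIR99021 replicate 3 fell among the XAV939 arrays, and without it the difference was 0.30 with an adjusted p of 0.0328 (limma), against 0.19 ± 0.088 with all arrays. Foxc2 differed by 0.081 ± 0.057. The used probe set of Foxf1 differed by -0.075 ± 0.081 and its other probe set, in the fit over all probe sets, by 0.024 ± 0.065. Several of these genes are neighbours on the RefSeq assembly: Foxq1, Foxf2 and Foxc1 stand in a row on chromosome 13, Foxc2 and Foxl1 beside each other near Foxf1 on chromosome 8, and Foxd2 beside Foxe3 on chromosome 4.

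Fibroblast markers moved with treatment. Of 21 measured markers, 8 rose with CHIR99021, 1 (Mmp2) fell and 12 did not pass (42.9% called, beside 9.65% of all genes). The mean of the list was 6.23 to 6.29 on the CHIR99021 arrays and 5.99 to 6.08 on the XAV939 arrays. Col1a1 (1.05 ± 0.055), Cd44 (1.01 ± 0.069), Tagln (0.67 ± 0.069) and Pdgfrb (0.59 ± 0.054) had the smallest p. Of the 12 markers that did not pass, Dcn, Lum, Postn and Fap had means over all arrays of 4.42, 4.05, 4.27 and 4.13. Only Thy1 (6.41), Twist1 (6.45) and Col3a1 (6.35) of the 12 lay above the median of all genes (6.07). The other 9 lay at or below it. The part of feeder cells in the values of Foxc1 and Foxs1 was not tested.

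The remaining developmental members had differences between -0.18 and 0.096, and none passed. They were Foxb1 and Foxb2 of the neural tube, Foxe1 of the thyroid, Foxe3 of the lens, Foxi1 and Foxi2, Foxj1 of motile cilia, Foxn1 of the thymus, Foxn4 of the retina, Foxl2 of the ovary and Foxp3. Foxb2 was at the lower end (-0.18 ± 0.074, adjusted p = 0.192, limma). Foxj1 differed by -0.12 ± 0.085. Of 18 measured genes of motile cilia 1 rose and 17 did not pass (5.56% called, beside 9.65% of all genes). In this list 16 genes lay at or below the median of all genes, so the share over all genes is not a like background. The gene that rose was Rfx2, a regulator of ciliary genes (0.33 ± 0.078, adjusted p = 0.0212). It did not pass when replicate 2 or 3 of either treatment was left out (up to 0.0816). The last 4 members, Foxd4, Foxq1, Foxr1 and Foxr2, lay below the median of all genes and did not pass, and Foxr2 differed by -0.21 ± 0.081 (adjusted p = 0.153, limma). Without XAV939 replicate 2 the Foxr2 difference was -0.30 and passed (adjusted p = 0.0312).

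**Figure D4:**
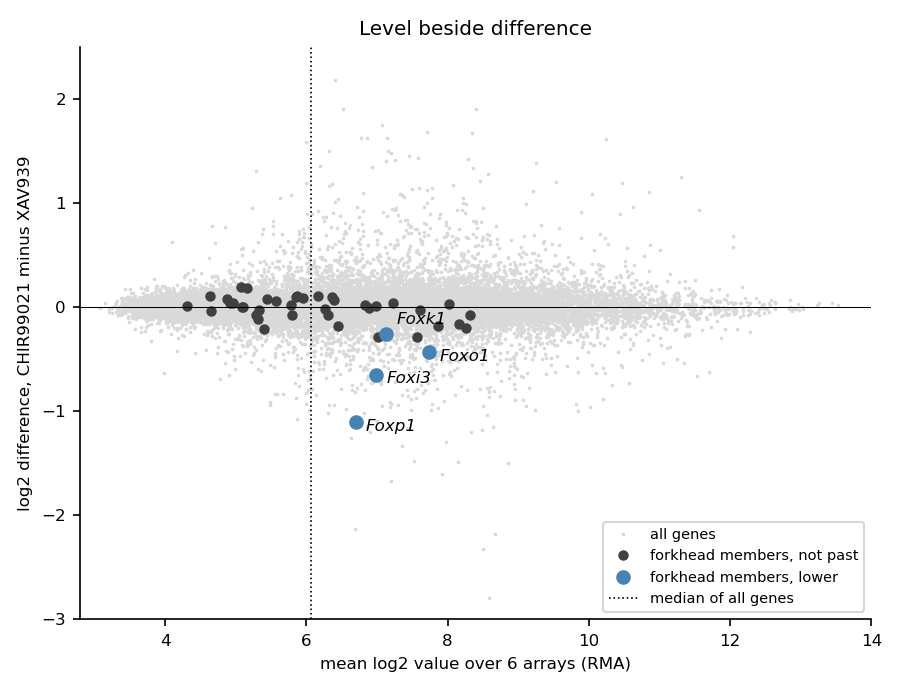
Log2 difference (CHIR99021 minus XAV939) against the mean log2 value over 6 arrays, for all 19937 genes in grey and the 43 forkhead genes as larger points, with those called lower in blue. The 4 called members lie to the right of the dotted line, which marks the median of all genes at 6.07.

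The family was spread over the lower and middle part of the level range, from 4.31 (Foxd1) to 8.31 (Foxk2). Of the 43 members, 22 lay above the median of all genes and 21 at or below it. All 4 called members were among the 22, which is 18.2% of them, beside 15.9% of all genes above the median called in either direction. Genes called lower were 7.06% of all genes above the median.

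Standard errors of the members ran from 0.052 to 0.11, so differences of like size could differ in call. Foxh1 (-0.29 ± 0.11) did not pass, whereas Foxk1 (-0.26 ± 0.059) did. Of the 39 members that did not pass, 28 had a 95% interval inside ±0.3 log2, or 1.23-fold in either direction. For the other 11 a difference of that size in the array value could not be set aside at this number of arrays. The intervals bound array values only. No detection call was available, so for members low on the array, such as Foxd1 (4.31) and Foxp2 (5.10), a narrow interval does not exclude a change in RNA. No value of a member that did not pass exceeded 0.29 in size.

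Groups did not overlap for 9 members (20.9%), 8 lower and 1 higher with CHIR99021, beside 25.1% of all genes. Of all genes, 11.0% were without overlap and lower, and 14.1% without overlap and higher. Beside the 4 called members these were Foxc1, Foxd3, Foxn2, Foxn3 and Foxa2.

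XAV939 replicate 1 was the highest array of its group for 31 of the 43 members (72.1%), beside 40.8% of all genes. XAV939 replicate 2 was the highest for 1 member. Among CHIR99021 arrays, replicate 3 was the highest for 23 members (53.5%), beside 46.8% of all genes. Without XAV939 replicate 1 the median difference of the family was 0.042, and 5 members were lower and 1 higher. Foxp1, Foxi3, Foxo1 and Foxk1 were all still called lower.

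**Figure D5:**
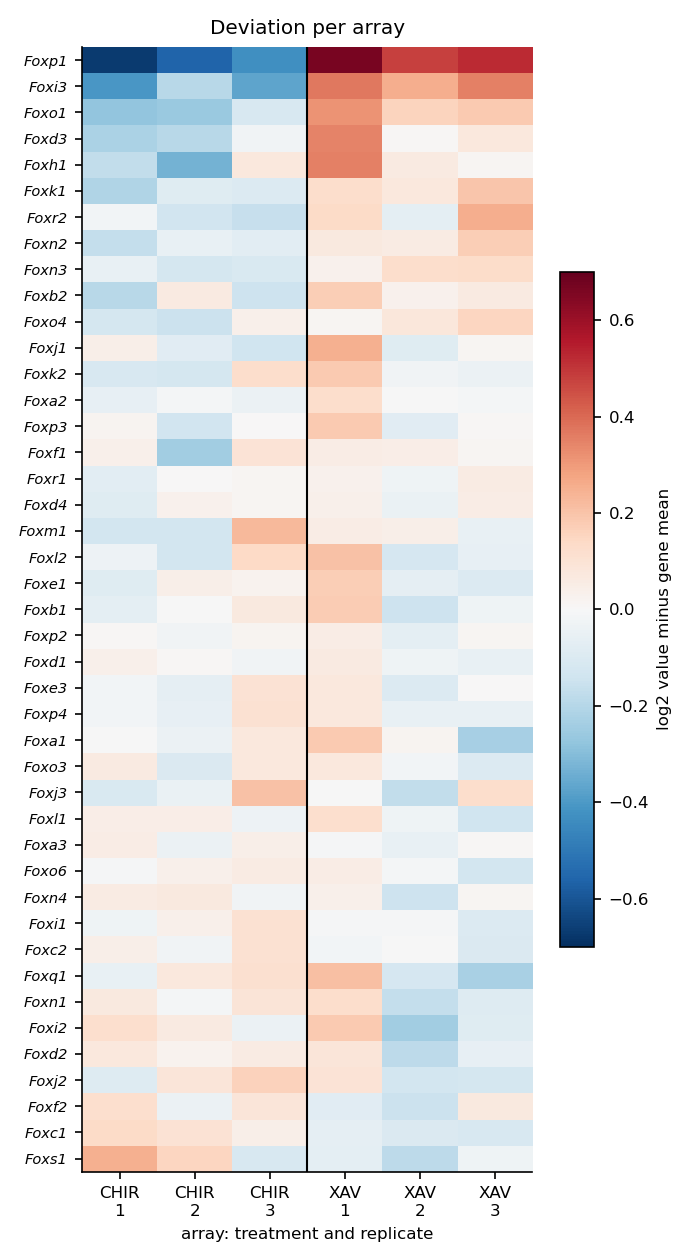
Log2 value of each of the 43 forkhead genes on each array minus that gene's mean over 6 arrays, with genes ordered by difference and CHIR99021 arrays left of XAV939 arrays. Foxp1, Foxi3 and Foxo1 change colour between treatments, and the XAV939 replicate 1 column is red for most genes.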

How the data were processed

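The deposited table holds log2 expression values of 34760 probe sets, made by the authors with RMA per the submitters' processing notes (version and build not given in the sources used here). Scanner files were not used, so no detection call or scan batch was available. Of 21640 probe sets naming 1 gene, that with the highest mean was kept. All 43 members matched RefSeq, the source of the promoters, by Entrez identifier. The unfiltered values were fitted with limma 3.58.1 in R 4.3.3 (lmFit, eBayes; 4 residual and 6.15 prior degrees of freedom). Simulated differences of 0.3 between CHIR99021 and XAV939 among 19937 genes were called in 40.8% of cases, those of 0.5 in 95.2%. Each simulation changed far fewer genes than were called in the data, which makes the adjustment stricter. These rates are therefore not those of the data.

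The members, lists and tests were chosen with earlier results of these data known. By rule 26 members were named with values (those called, the 6 next by p, the 6 with the highest mean and a set list), and the others are named too. From each partner and target list, called genes were named where 5 or fewer passed in a direction, otherwise the 4 with the smallest p; marker lists were treated alike, a choice made after their values were seen. Mst1 in the regulator list is by symbol a secreted ligand gene, not the kinase. The number of arrays limits the precision. Alternatives were scalings, filters, probe set rules, variance models, a replicate block, a stricter threshold and single-array omissions.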

Additional observations from a re-analysis of the deposited data

How the results depend on the processing

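Over 15 alternatives, Foxp1 and Foxi3 kept their direction and call in every one, with adjusted p at most 0.0227 and 0.0388. Foxo1 lost its call under ordinary least squares (adjusted p = 0.0769), as did Foxk1 (0.114), which also lost it with all probe sets tested (0.0709). Ordinary least squares left 2 members lower, 639 genes called in all and 12 in the partner and target lists, against 4, 1924 and 22. Quantile normalisation repeated gave 1 member higher (Foxc1) and 6 lower, and turned Foxe3 (-0.0072) and Foxp2 (-0.0033), both near 0, negative. Among genes above the 50th percentile the median of 22 members was -0.076, and 6 were lower. Both settings added Foxn2 and Foxn3. Testing all probe sets left 1044 genes, and a threshold of 0.01 left 1118. With single arrays omitted, 0 to 1 members were higher and 3 to 6 lower, the median was -0.042 to 0.042, 1254 to 2247 genes were called, and 19 to 26 in the lists. Of the 43 members, 16 uncalled ones turned sign when an array was omitted, with ranges of -0.091 to 0.12 for Foxa1, -0.074 to 0.086 for Foxb1, -0.0090 to 0.048 for Foxd1, -0.055 to 0.0099 for Foxd4, -0.060 to 0.074 for Foxe1, -0.033 to 0.056 for Foxe3, -0.14 to 0.028 for Foxf1, -0.0011 to 0.21 for Foxi2, -0.058 to 0.10 for Foxj3, -0.026 to 0.10 for Foxl1, -0.091 to 0.081 for Foxl2, -0.14 to 0.036 for Foxm1, -0.015 to 0.082 for Foxo3, -0.032 to 0.027 for Foxp2, -0.028 to 0.062 for Foxp4 and -0.0022 to 0.22 for Foxq1. No pairing by replicate number was seen in the deviations. Their correlations were -0.096, 0.060 and -0.14 for same-numbered arrays, beside -0.13 to 0.18 for others. This cannot show whether same-numbered cultures were handled together. With the replicate block 1578 genes and the same 4 members were called. Of 33 list genes named, 14 lost their call at least once and 0 turned direction. The causes were not tested.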

Other observations

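Genes next to the 4 members that fell were looked up by their order on the RefSeq assembly, after the members' values were seen. Eif4e3, a cap-binding translation factor gene beside Foxp1, had means of 5.15 ± 0.048 with CHIR99021 and 5.46 ± 0.13 with XAV939 (SD, n = 3 each), a difference of -0.31 ± 0.071 (adjusted p = 0.0201, limma). Mitf, the melanocyte and MiT/TFE transcription factor gene and the nearest measured gene on the other side of Foxp1, differed by 0.16 ± 0.058 (adjusted p = 0.134, limma). The neighbours of Foxo1, Maml3 and Cog6, differed by 0.12 ± 0.066 and -0.12 ± 0.062. Sdk1 and Ap5z1 beside Foxk1 differed by 0.097 ± 0.057 and 0.061 ± 0.064, and Tex37 and Thnsl2 near Foxi3 by 0.13 ± 0.066 and 0.028 ± 0.062. Of these 8 neighbours, only Eif4e3 passed, where 9.65% of all genes were called. The mean of Eif4e3 over all arrays, 5.31, was below the median of all genes, 6.07.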
